A study of Mus musculus with 6 samples.

Results

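Heart muscle genes that encode proteins of the Z-disc, the titin filament and the intercalated disc, or that are known to respond to stretch, were followed in pressure-loaded mouse hearts: Ankrd1, Ankrd2, Ankrd23, Xirp1, Xirp2, Csrp3, Fhl1, Enah, Synpo2l and Nmrk2. Their rows were those annotated with exactly 1 of these symbols, and each of the 10 genes had 1 such row among 19938 genes with a row of their own. The 10 names were chosen with the difference between the genotypes already known, so their differences are given as a description without a test. The A2a-R transgenic group comprised 3 male FVB mice carrying an inducible, heart-restricted transgene for the adenosine A2a receptor, and the wild-type group comprised 3 male littermates. Both groups had the aorta narrowed by transverse aortic constriction, an operation that raises the pressure against which the left ventricle pumps, at 8 weeks of age, and hearts were taken 14 weeks later. Each heart was hybridised to 1 Affymetrix Mouse Gene 1.0 ST array. The sources used here name neither the promoter of the transgene nor the state of its induction, the transgene's own transcript was not analysed here, and hearts without surgery were not analysed here. For that reason the values set transgenic against wild-type loaded hearts and do not show whether any of the genes responded to load or stretch in these animals.

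The Z-disc anchors the actin filaments of neighbouring sarcomeres and holds the end of titin, the elastic filament, while the intercalated disc joins heart muscle cells end to end and carries their force. Proteins at both places are thought to sense strain: ankyrin repeat proteins bind titin's spring region and also move to the nucleus, and Xin repeat proteins bind actin at the disc. Several of the genes, Ankrd1 among them, are well known as transcripts that rise in overloaded ventricles.

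Mean levels were lower in A2a-R transgenic than in wild-type hearts for 8 of the 10 genes, and the 3 transgenic values did not overlap the 3 wild-type values in each of these 8. Over all 21789 rows with 1 symbol, the transgenic mean was lower in 53.9%, and the transgenic values lay below the wild-type values without overlap in 12.6% and above them in 7.73%. The median difference of the 10 genes was -0.35 on the log2 scale, against -0.01 over all genes. Ankrd2 and Fhl1 had higher means in transgenic hearts, and their groups overlapped. Of the 10 genes 1, Synpo2l, passed the adjusted threshold of 0.05 in the limma fit over all rows, on the lower side, where 0.441% of all rows passed; because the genes were chosen on this contrast, nothing is read from that count, and it was 0 when any 1 array was left out. Values are log2 RMA values throughout, and since array probes differ in brightness, levels are compared between hearts and not between genes. In whole hearts, fewer cells of a type and less RNA per cell cannot be told apart; the 10 cardiomyocyte markers had a median of -0.01.

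Because most of the 10 genes had lower transgenic means, the sequences before their starts were read for motifs of factors known to act on muscle promoters. RefSeq start sites of assembly GRCm38.p6 gave 13 windows of 250 bases before the start for 9 of the 10 genes, and Xirp1 was not among them. They were searched on both strands for the MCAT motif (CATTCC), the element bound by TEAD factors, for the MEF2 site and for the CArG box of serum response factor; matches are in capitals, and all sequences run 5′ to 3′ on the strand of the gene. The 5 windows with an MCAT or MEF2 match and the window with a CArG box were these:
Ankrd1, chr19:36119845-36120094, minus strand, MCAT: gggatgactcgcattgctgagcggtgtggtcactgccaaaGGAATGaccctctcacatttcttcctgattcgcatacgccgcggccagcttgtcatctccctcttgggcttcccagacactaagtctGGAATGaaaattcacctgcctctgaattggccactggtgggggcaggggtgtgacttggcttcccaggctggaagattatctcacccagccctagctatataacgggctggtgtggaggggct
Ankrd23, chr1:36535740-36535989, minus strand, MCAT: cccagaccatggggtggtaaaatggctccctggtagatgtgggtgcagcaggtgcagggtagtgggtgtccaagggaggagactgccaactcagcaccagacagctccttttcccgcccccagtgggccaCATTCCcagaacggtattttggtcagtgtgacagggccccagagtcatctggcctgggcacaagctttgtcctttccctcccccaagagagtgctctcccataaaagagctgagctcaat
Xirp2, chr2:67445752-67446001, plus strand, MEF2: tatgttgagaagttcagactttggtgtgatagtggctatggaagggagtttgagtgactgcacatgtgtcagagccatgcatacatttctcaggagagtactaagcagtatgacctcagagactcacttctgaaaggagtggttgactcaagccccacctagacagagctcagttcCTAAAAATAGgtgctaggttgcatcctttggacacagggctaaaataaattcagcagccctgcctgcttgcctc
Synpo2l, chr14:20668355-20668604, minus strand, MEF2: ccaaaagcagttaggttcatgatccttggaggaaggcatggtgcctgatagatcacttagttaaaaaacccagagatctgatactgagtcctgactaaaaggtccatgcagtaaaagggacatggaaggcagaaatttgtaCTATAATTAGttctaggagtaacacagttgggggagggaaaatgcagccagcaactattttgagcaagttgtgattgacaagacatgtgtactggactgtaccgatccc
Synpo2l, chr14:20664575-20664824, minus strand, MEF2: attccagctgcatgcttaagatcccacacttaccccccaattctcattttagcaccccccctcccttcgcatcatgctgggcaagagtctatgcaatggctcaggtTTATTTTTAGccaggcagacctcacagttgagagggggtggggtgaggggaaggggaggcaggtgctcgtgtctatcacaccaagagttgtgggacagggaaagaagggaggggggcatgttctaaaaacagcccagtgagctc
Fhl1, chrX:56779433-56779682, plus strand, CArG: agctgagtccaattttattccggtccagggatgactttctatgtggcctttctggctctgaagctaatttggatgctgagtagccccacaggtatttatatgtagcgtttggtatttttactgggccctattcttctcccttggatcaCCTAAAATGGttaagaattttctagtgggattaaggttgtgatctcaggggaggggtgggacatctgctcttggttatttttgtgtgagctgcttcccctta

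The Ankrd1 window held 2 MCAT matches, beginning 210 and 123 bases before the start, and the second of 2 Ankrd23 windows held 1, beginning 120 bases before it. MCAT matches were present in 12.6% of the 32851 windows of all genes and in 2 of the 13 windows here. MEF2 sites were rarer, in 2.92% of all windows, and stood in 3 of the 13: at 74 bases before the start in Xirp2 and at 109 and 144 bases before the start in the first and second Synpo2l windows. The CArG box, present in 1.47% of all windows, was matched in 1 of the 13, at 102 bases before an Fhl1 start. A TATAAA match was found in the windows of Ankrd2, Fhl1 and Nmrk2, 3 of 13 against 12.4% of all windows, and the E-box letters CANNTG in 11 of 13 against 66.2%. The MEF2 and MCAT matches fell in different genes. All 4 genes that held one had lower means in transgenic hearts, while Fhl1, with the CArG box, had a higher mean. Because the genes were chosen on this contrast, with 8 of the 10 lower, nothing is read from that count. None of the 3 motifs was found in the windows of Csrp3, Enah and Nmrk2, which had lower means, or of Ankrd2, which had a higher mean. A link between the motifs and the differences was not tested. A match describes the letters of the window and was not tested as a binding site.

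The 3 muscle ankyrin repeat genes encode proteins that bind the spring region of titin, and 2 of the 3 had lower transgenic means. Ankrd1 encodes the cardiac ankyrin repeat protein, a titin-bound cofactor of transcription, and had values of 13.34, 13.17 and 13.36 in transgenic hearts, against 13.68, 13.56 and 13.54 in wild-type hearts. All transgenic values lay below all wild-type values, by at least 0.18. The difference was -0.30 ± 0.07 (moderated SE, 95% interval -0.47 to -0.13), or 1.23-fold lower. Ankrd23, whose protein is also named diabetes-related ankyrin repeat protein, had values of 12.91, 12.79 and 12.91 in transgenic hearts, against 13.30, 13.17 and 13.11 in wild-type hearts. The groups were again apart, and the difference of -0.32 ± 0.07 (95% interval -0.49 to -0.16) was close to that of Ankrd1. Ankrd2, the relative best known from skeletal muscle, had values of 6.84, 6.67 and 6.95 in transgenic hearts, against 6.99, 6.62 and 6.74 in wild-type hearts. Here the highest and the lowest of the 6 values were both wild type, and the difference was 0.04 ± 0.11 (95% interval -0.21 to 0.29). All 6 Ankrd2 values lay below the mean of all rows on their arrays, 7.03 to 7.06, and whether they stood above background was not tested. The interval of Ankrd2 overlapped those of its relatives, and the difference between the 3 genes was not tested.

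The 2 Xin repeat genes encode actin-binding proteins of the intercalated disc. Xirp2 had values of 11.86, 11.80 and 12.04 in transgenic hearts, against 12.72, 12.23 and 12.40 in wild-type hearts. The groups were 0.19 apart, and the mean was 1.46-fold lower in transgenic hearts (difference -0.55 ± 0.12, 95% interval -0.84 to -0.26). Xirp1 had values of 10.42, 10.33 and 10.59 in transgenic hearts, against 11.12, 10.65 and 10.69 in wild-type hearts. Its groups were only 0.06 apart, and wild-type replicate 1 stood clear of the other 5 hearts. The Xirp1 difference of -0.37 ± 0.13 (95% interval -0.67 to -0.08) was -0.22 without that heart, whereas Xirp2 was at -0.42 without it.

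Enah and Synpo2l encode proteins that act on actin filaments, Enah as the Ena/VASP family member Mena, which speeds filament growth, and Synpo2l as a synaptopodin-like Z-disc protein. Enah had values of 11.20, 11.16 and 11.23 in transgenic hearts, against 11.80, 11.48 and 11.51 in wild-type hearts. The transgenic hearts were tightly grouped (SD 0.04) and lay at least 0.25 below the wild-type hearts, with a difference of -0.40 ± 0.09 (95% interval -0.61 to -0.19). Synpo2l had values of 10.48, 10.27 and 10.48 in transgenic hearts, against 10.99, 10.89 and 10.85 in wild-type hearts. This was the widest gap between the groups among the 10 genes, 0.37, with a 1.41-fold lower mean in transgenic hearts and a difference of -0.50 ± 0.08 (95% interval -0.68 to -0.32).

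**Figure D1:**
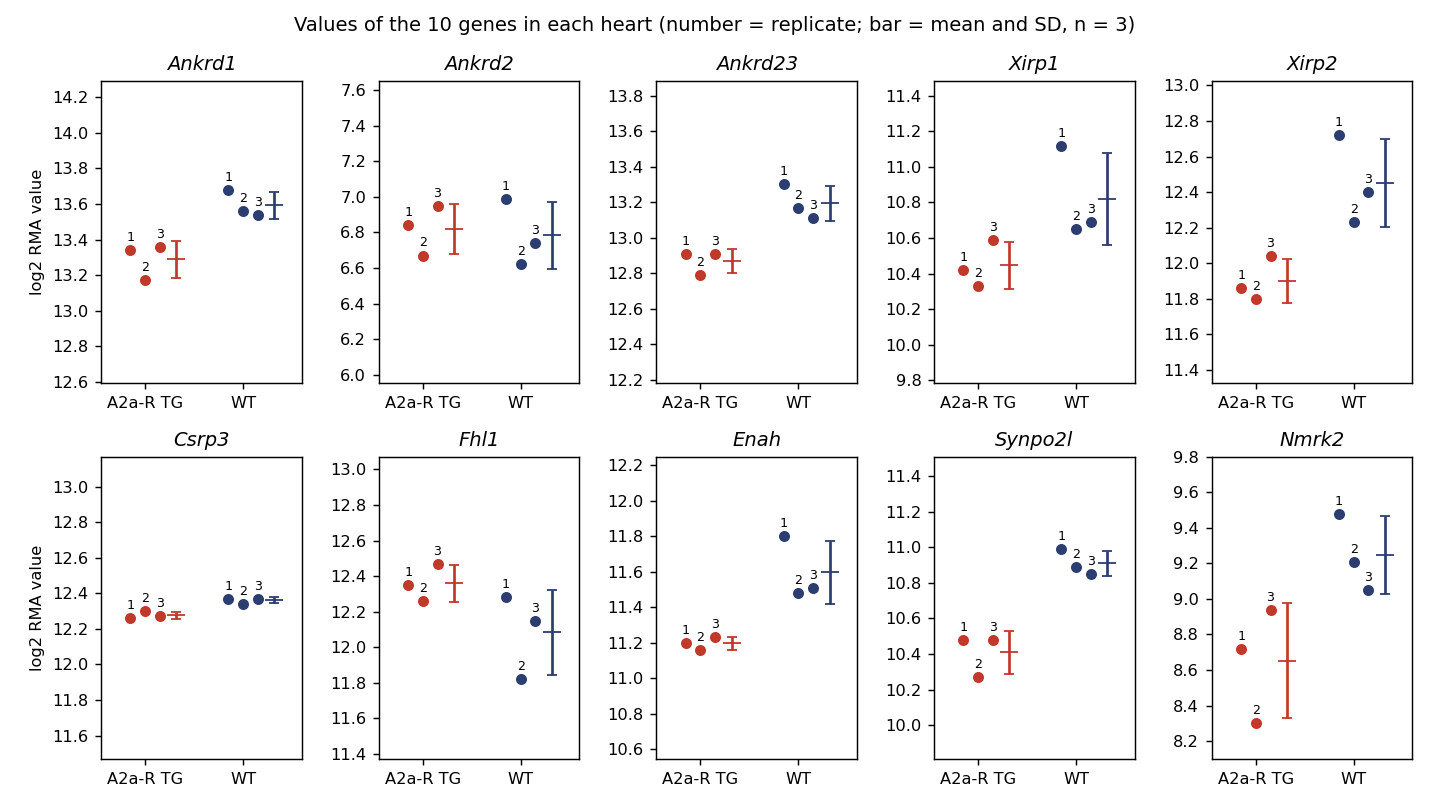
Log2 RMA value (vertical axis, every panel spanning the same 1.7 log2 units) of each of the 10 genes in 3 A2a-R transgenic hearts (red, left) and 3 wild-type hearts (blue, right); digits are replicate numbers and bars are mean and SD. The groups are apart with lower transgenic values in 8 panels and overlap for Ankrd2 and Fhl1.

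The 2 LIM domain genes lay on different sides of 0. Csrp3 encodes muscle LIM protein, a Z-disc protein in which loss causes dilated hearts in mice, and had values of 12.26, 12.30 and 12.27 in transgenic hearts, against 12.37, 12.34 and 12.37 in wild-type hearts. The groups did not overlap, but only because both were tight (SD 0.02 each): the gap was 0.04 and the difference -0.08 ± 0.05 (95% interval -0.20 to 0.04), 1.06-fold. Fhl1, which encodes a LIM-only protein that binds titin and takes part in the growth response to pressure, had values of 12.35, 12.26 and 12.47 in transgenic hearts, against 12.28, 11.82 and 12.15 in wild-type hearts. Transgenic replicate 2 lay just below wild-type replicate 1, and all other transgenic values lay above all wild-type values. The difference was 0.28 ± 0.12 (95% interval 0.01 to 0.55), and its sign was opposite to that of the 8 lower genes. Without wild-type replicate 2, the lowest heart, the Fhl1 difference was 0.145.

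Nmrk2 encodes a nicotinamide riboside kinase of muscle that makes a precursor of NAD and was first described as a protein binding integrin. Its values were 8.72, 8.30 and 8.94 in transgenic hearts, against 9.48, 9.21 and 9.05 in wild-type hearts. The groups were 0.11 apart and the scatter was the widest of the 10 genes in transgenic hearts (SD 0.33). The mean was 1.51-fold lower in transgenic hearts, the largest fold among the 10 genes, with a difference of -0.59 ± 0.17 (95% interval -0.98 to -0.21).

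The genes also varied in parallel from heart to heart within a genotype. Wild-type replicate 1 was the highest of the 6 hearts for 9 of the 10 genes, all but Fhl1, counting a tie with wild-type replicate 3 in Csrp3. Over all rows, 19.9% were highest in wild-type replicate 1, with ties not counted. Transgenic replicate 2 was the lowest of the 6 for 7 genes, where 23.8% of all rows were lowest. Averaged over the 10 genes after centring each on its own mean, the deviations were -0.13, -0.26 and -0.04 in transgenic hearts, against 0.31, 0.03 and 0.08 in wild-type hearts. Wild-type replicates 2 and 3 were thus nearer to transgenic replicate 3 than to wild-type replicate 1.

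**Figure D2:**
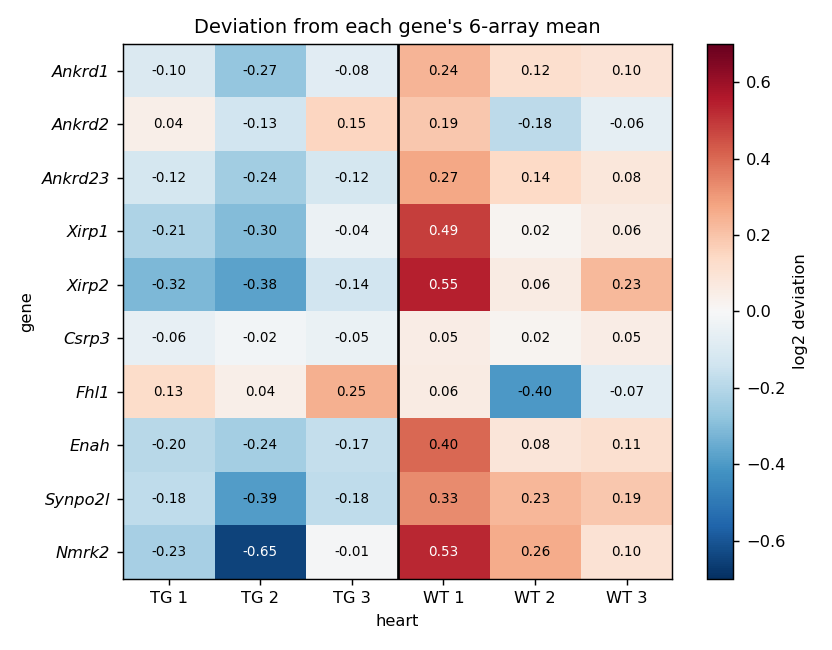
Log2 deviation of each gene (rows) from its own 6-array mean in each heart (columns, A2a-R transgenic left of the line and wild type right of it), printed in each cell. Wild-type replicate 1 is the highest heart in 9 rows, counting a tie with wild-type replicate 3 in Csrp3, and transgenic replicate 2 is the lowest in 7.

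Deviations from the genotype mean, which hold no part of the difference between genotypes, were positively correlated in 41 of the 45 pairs of the 10 genes, with a median Pearson r of 0.80 over the 6 hearts. The correlation is a description: the pairs share the same 6 arrays, and within each genotype 2 deviations fix the third. The same figures were not computed for pairs of other genes, so these have no background. Among transgenic hearts, replicate 2 was lowest in 9 of the 10 genes and in 41.5% of all rows. Among wild-type hearts, replicate 1 was highest in 9 of the 10 genes and in 36.5% of all rows, with ties not counted. The 4 negative pairs all held Csrp3, which barely varied. Ankrd2 and Fhl1, the genes without a lower transgenic mean, followed the deviations of the other 9 genes at r = 0.99 and 0.78. For Ankrd2 the correlation with the other 9 over the plain values was 0.42, and for Fhl1 it was -0.28.

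Because wild-type replicate 1 was the highest heart and transgenic replicate 2 the lowest for most of the genes, the values were also taken without them. Without wild-type replicate 1 the median difference was -0.27, and without transgenic replicate 2 it was -0.30. With both left out, a choice made after seeing the values, the median was -0.22, and 8 genes were still lower. The difference was then -0.17 for Xirp1, -0.20 for Ankrd1, -0.23 for Ankrd23, -0.28 for Enah, -0.30 for Nmrk2, -0.37 for Xirp2 and -0.39 for Synpo2l. Fhl1 was at 0.43 without both hearts, and Ankrd2 at 0.22.

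The same 2 hearts were extreme for the mean of the markers of pressure load. Its deviations were -0.13, -0.38 and -0.12 in transgenic hearts, against 0.37, 0.10 and 0.17 in wild-type hearts. This mean weighs all 10 markers equally, whichever way each moves with load, and is not a score of load. Single markers could differ from it: Acta1 was highest in wild-type replicate 3, at 13.47, against 13.20 in wild-type replicate 1. Of these 10 markers, the atrial natriuretic peptide gene Nppa and the skeletal actin gene Acta1 fell, the ubiquitin hydrolase gene Uchl1 rose, and 7 did not pass in limma; the median was -0.36 and 0.959% of all rows were called. The 3 calls did not survive every loss of 1 array, with 0 or 1 call left. Nppb, which encodes brain natriuretic peptide, had values of 11.76, 11.31 and 11.80 in transgenic hearts, against 12.58, 12.18 and 12.10 in wild-type hearts, the same order of the hearts as in Ankrd1. Nppb differed by -0.66 ± 0.16 (limma adjusted p = 0.117).

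**Figure D3:**
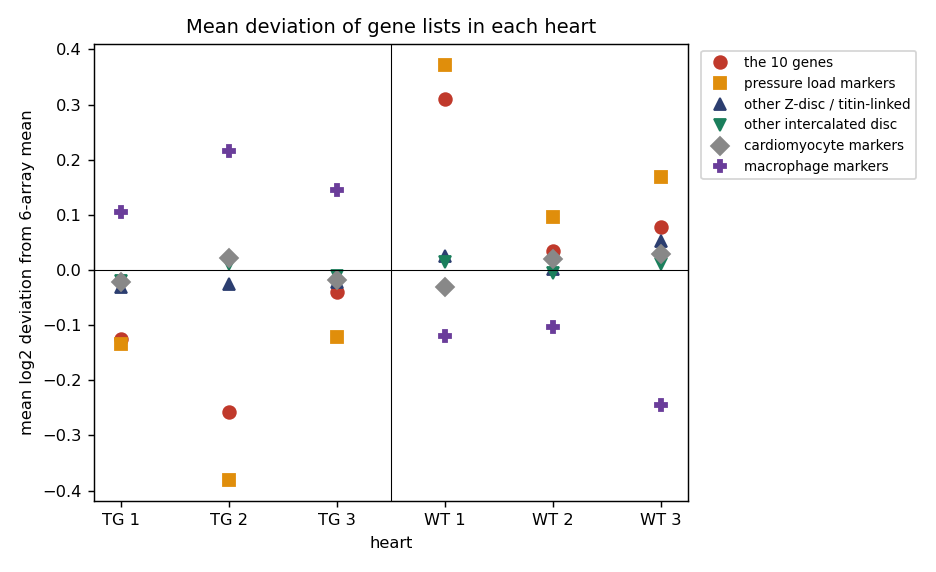
Mean log2 deviation from the 6-array mean (vertical axis) of the 10 genes and of 5 other gene lists in each heart, A2a-R transgenic left and wild type right. The 10 genes and the load markers stand lowest in transgenic replicate 2 and highest in wild-type replicate 1, while the other Z-disc, intercalated disc and cardiomyocyte lists stay between -0.03 and 0.05.

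The heart muscle content of the samples, as far as marker genes show it, differed little. The 10 cardiomyocyte markers, among them Actc1, Tnnt2, Myh6 and Actn2, were all measured at log2 values above 12 in every heart, 7 were lower in transgenic hearts, and 0 passed in limma, with 2 at an unadjusted p below 0.05, against 14.8% of all rows, and a median of -0.01. Their summed linear level was 120166 to 123710 in transgenic hearts, against 120428 to 124537 in wild-type hearts. The 2 with such a p were Ryr2, at 0.25 ± 0.07, and Mybpc3, at -0.16 ± 0.06, which went opposite ways. The highest value of the whole table was 14.69, and how far rows this bright can show a change was not tested. The 14 markers of skeletal muscle, a tissue that also expresses Ankrd2, Ankrd23 and Nmrk2, had a median of 0.04 and 0 calls, with 2 at an unadjusted p below 0.05, and summed to 1996 to 2239 in transgenic hearts, against 2247 to 2769 in wild-type hearts. That gap lay in 1 gene, the calsequestrin gene Casq1 (difference -0.39 ± 0.16, limma adjusted p = 0.324); without it the sums overlapped, at 1004 to 1146 in transgenic hearts, against 999 to 1111 in wild-type hearts. Macrophage markers were higher in transgenic hearts for 12 of 12, with a sum of 5879 to 6251, against 4329 to 4965 in wild-type hearts, and the lectin gene Lgals3 rose (difference 0.61 ± 0.06, limma adjusted p = 0.00423). Among the 8 smooth muscle markers 1 rose, the smooth muscle actin gene Acta2, with 11.43, 11.69 and 11.47 in transgenic hearts, against 10.74, 10.94 and 10.73 in wild-type hearts (difference 0.73 ± 0.09, limma adjusted p = 0.0106). Its adjusted p was 0.0594 without wild-type replicate 1 and 0.0565 without wild-type replicate 3. The other 7 smooth muscle markers overlapped between the groups, and the list's median was -0.02. Of the 8 atrial markers 7 were lower and 1, Nppa, was called, the same gene as among the load markers. The other 7 overlapped between the groups, and their sum was 2030 to 3284 in transgenic hearts, against 1937 to 4017 in wild-type hearts. Of the 8 endothelial markers 7 were lower and 0 passed in limma, with 1 at an unadjusted p below 0.05, a median of -0.07 and a sum of 11050 to 12150 in transgenic hearts, against 11715 to 12281 in wild-type hearts. The part of these lists in the lower values of the 10 genes was not tested. The fibroblast list was highest in wild-type replicate 1, at 0.19, against -0.11 and -0.07 in the other wild-type hearts and -0.02 to 0.01 in transgenic hearts.

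Of the 10 genes, 8 had a mean log2 value of 10 or more, where the array is bright. Among the 1575 genes at that level, the median difference was -0.02, 55.9% had a lower mean in transgenic hearts, and 20.3% had transgenic values below all wild-type values. The spread of all values was narrower on transgenic arrays, with an SD of 2.05 to 2.07, against 2.08 to 2.10 on wild-type arrays. The part of this narrowing in the differences of bright genes was not tested.

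**Figure D4:**
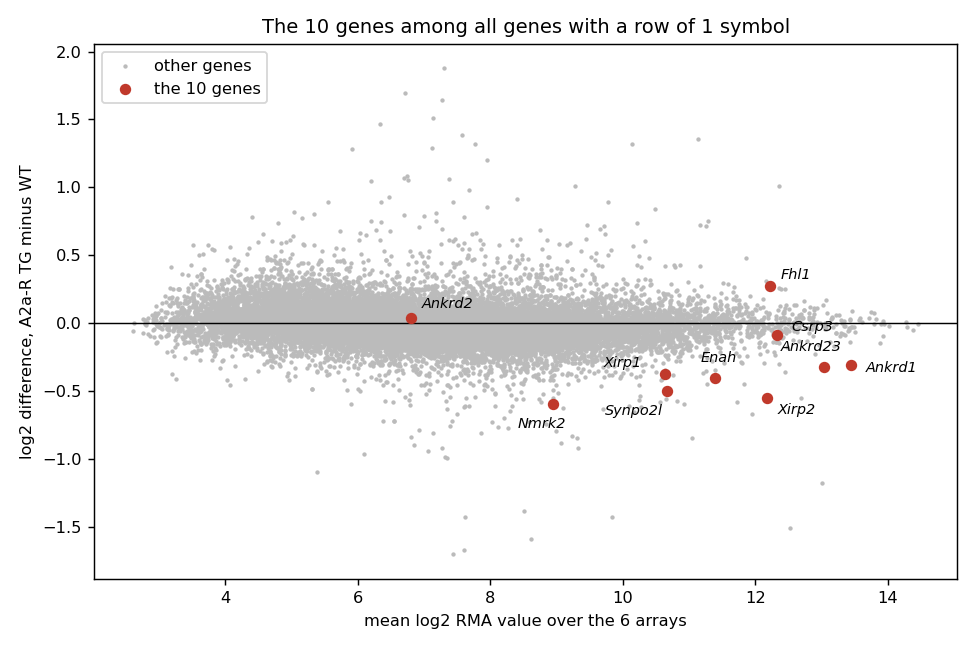
Log2 difference, A2a-R transgenic minus wild type (vertical axis), against the mean log2 RMA value over the 6 arrays (horizontal axis) for 19938 genes (grey), with the 10 genes in red. Of the 10 genes 7 lie at -0.30 or lower, while Csrp3 and Ankrd2 lie near 0 and Fhl1 lies at 0.28.

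Of 15 relatives of the 10 genes by protein family, 10 were higher and 5 lower in transgenic hearts, with a median of 0.02. In limma 0 passed, and 3 had an unadjusted p below 0.05, against 14.8% of all rows. Vasp and Evl, the other Ena/VASP genes beside Enah, were at 0.02 ± 0.06 and -0.01 ± 0.06. Synpo2, the nearest relative of Synpo2l, was at 0.04 ± 0.05, and Synpo at -0.19 ± 0.06 (adjusted p = 0.23). Csrp1 and Csrp2 were at 0.00 ± 0.05 and 0.05 ± 0.08. Fhl2, the LIM gene most typical of heart, had values of 12.35, 12.35 and 12.26 in transgenic hearts, against 11.73, 12.09 and 12.20 in wild-type hearts. All transgenic values lay above all wild-type values, with a difference of 0.31 ± 0.11 that did not pass (limma adjusted p = 0.264). In Fhl2 wild-type replicate 1 was the lowest heart, while in Fhl1 it was the highest wild-type heart. Nmrk1, the more widely expressed riboside kinase, was at -0.06 ± 0.06. Crip2 had the smallest p of the 15, with 12.47, 12.51 and 12.46 in transgenic hearts, against 12.08, 12.32 and 12.26 in wild-type hearts. Its difference of 0.26 ± 0.07 did not pass (limma adjusted p = 0.161). Fhl3 was at -0.20 ± 0.10 (limma adjusted p = 0.427).

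Of 38 other genes of the Z-disc and of titin's surroundings, 25 were lower and 13 higher, 1 rose and 37 did not pass in limma, and the median was -0.04. An unadjusted p below 0.05 was found for 14 of the 38, against 14.8% of all rows. The groups did not overlap in 13 on the lower side, against 12.6% of all rows, and in 4 on the higher side, against 7.73%. The gene that rose, as 0.519% of all rows did, was Pdlim3, which encodes an actinin-associated LIM protein of the Z-disc, with 10.03, 10.06 and 10 in transgenic hearts, against 9.51, 9.43 and 9.65 in wild-type hearts (difference 0.50 ± 0.07, limma adjusted p = 0.018). Its adjusted p was 0.0605 to 0.0779 without any 1 array other than wild-type replicate 3, and 0.0237 without that one. The 3 next by p were lower and did not pass: Nrap, a nebulin-related anchoring protein of the intercalated disc and of growing myofibrils, at -0.29 ± 0.07 (adjusted p = 0.105), Myoz2, a calcineurin-binding Z-disc protein, at -0.23 ± 0.06 (0.137), and Myom2, an M-band protein, at -0.58 ± 0.16 (0.15). Myom2 had 11.57, 11.16 and 11.57 in transgenic hearts, against 12.32, 11.81 and 11.90 in wild-type hearts, again lowest in transgenic replicate 2 and highest in wild-type replicate 1.

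Among 34 other intercalated disc genes, 21 were lower and 12 higher, and 0 passed in limma, with 9 at an unadjusted p below 0.05 and a median of -0.04. The 2 with the smallest p were the desmosomal cadherins Dsc2 and Dsg2, which hold the disc together, and both pointed upward. Dsc2 had 8.49, 8.60 and 8.44 in transgenic hearts, against 7.92, 8.05 and 8.21 in wild-type hearts (difference 0.45 ± 0.08, limma adjusted p = 0.0605). Dsg2 had 8.59, 8.74 and 8.64 in transgenic hearts, against 8.04, 8.26 and 8.34 in wild-type hearts (0.44 ± 0.09, limma adjusted p = 0.0688). Both passed after a further quantile normalization of the arrays, with limma adjusted p of 0.0346 for Dsc2 and 0.0372 for Dsg2. For both, wild-type replicate 1 was the lowest heart and transgenic replicate 2 the highest, the reverse of the order in most of the 10 genes. The afadin gene Afdn was at -0.29 ± 0.08 and the adhesion receptor gene Cxadr at -0.22 ± 0.06 (adjusted p = 0.134 and 0.131).

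**Figure D5:**
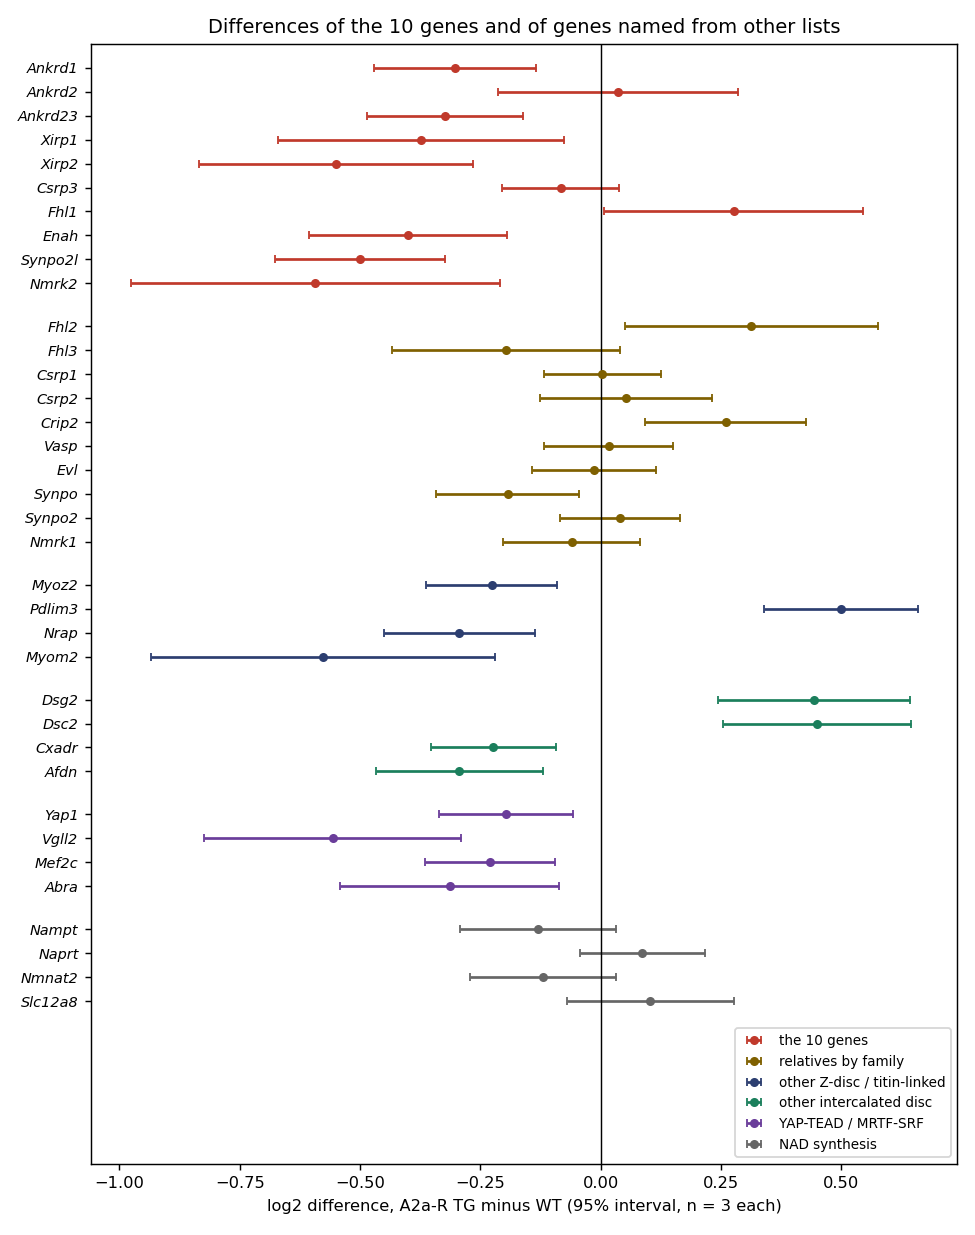
Log2 difference, A2a-R transgenic minus wild type, with the 95% interval of the limma fit (horizontal axis, n = 3 hearts each), for the 10 genes (top, red) and for the genes named from 5 other lists. Pdlim3, Dsg2, Dsc2, Fhl2 and Crip2 lie to the right of 0, opposite to 8 of the 10 genes.

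Genes of the YAP-TEAD and MRTF-SRF pathways, which carry strain signals to the nucleus, were listed together with MEF2 and further transcription factors. Of these 33 genes 26 were lower, against 53.9% of all rows, with a median of -0.05. In limma 0 of them passed, and 5 had an unadjusted p below 0.05, against 14.8% of all rows. The groups did not overlap in 9 on the lower side, against 12.6% of all rows, and in 0 on the higher side, against 7.73%. Vgll2, a TEAD cofactor of muscle, was at -0.56 ± 0.12 (limma adjusted p = 0.0819), Abra, an actin-binding protein of striated muscle, at -0.31 ± 0.10 (0.206), Mef2c at -0.23 ± 0.06 (0.134) and Yap1 at -0.20 ± 0.06 (0.198). Vgll2 had 8.31, 7.89 and 8.13 in transgenic hearts, against 8.50, 8.78 and 8.72 in wild-type hearts, so wild-type replicate 1 was its lowest wild-type heart, unlike in Ankrd1. Around Nmrk2, the 12 genes of NAD synthesis had a median of -0.03, and 0 passed in limma or had an unadjusted p below 0.05. Nampt, the enzyme that limits NAD salvage from nicotinamide, was at -0.13 ± 0.07. Nmnat2 was at -0.12 ± 0.07, Naprt at 0.09 ± 0.06 and Slc12a8 at 0.10 ± 0.08.

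The genes outside the 10 whose values over the 6 hearts were most like the mean pattern of the 10 were Pheta2 (Pearson r = 0.998), Uck2 (0.996), Vkorc1l1 (0.995), Clcc1 (0.994) and Zbtb44 (0.993). Among 19928 other genes, 156 reached r = 0.95 with that mean pattern, or 0.783%. Pheta2 was dim, with values from 5.11 to 5.54 over the 6 hearts. Uck2, a uridine-cytidine kinase, had 10.31, 10.19 and 10.48 in transgenic hearts, against 10.92, 10.54 and 10.59 in wild-type hearts. This pattern resembled that of Xirp1. Most like Ankrd1 were Dync1h1 (0.995), which encodes the dynein heavy chain, Grip1 (0.994) and Gcnt1 (0.994), and most like Nmrk2 were Lrrc2 (0.996), Insr (0.995), which encodes the insulin receptor, and Cnksr3 (0.992). None of these 11 genes passed in limma, with Gcnt1 nearest at a difference of -0.61 ± 0.12 (adjusted p = 0.0622).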

How the data were processed

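Per the labels' protocols, Trizol was used to extract total RNA, and 100 ng per heart gave biotin-labelled single-stranded cDNA. The deposited values are log2 values made by the authors with RMA (background correction, quantile normalisation and probe summary) and the Partek software, per the submitters' processing notes; the sources used here give no versions, settings or genome build. The table held 28853 rows, named from the platform annotation: 21789 with exactly 1 symbol were tested, 1621 had several symbols and 5443 none. For each gene the row of highest 6-array mean was used. Rows were fitted in limma 3.58.1 (R 4.3.3; lmFit and eBayes, no covariate), transgenic minus wild type, with Benjamini-Hochberg adjustment over the tested rows and a threshold of 0.05. Errors are SD over 3 hearts or the moderated SE. Precision is limited by having 6 arrays. The fit was tested on simulated data.

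The 10 genes, the other gene lists and the marker lists were chosen with earlier results of these data known. The genes named were the 10, the called genes of each list, otherwise the smallest p up to 4, the closest relatives by family, and the genes most like the mean pattern, Ankrd1 and Nmrk2; genes of the marker lists were named as examples after their values were seen, and sums without a list's brightest marker were added then too. Listed genes without a row of 1 symbol were not used here. Motifs were searched in RefSeq promoter windows of GRCm38.p6. The alternatives tried were the replicate number as a block, 2 normalizations, a filter on dim rows, another variance prior, array weights, a looser threshold, the mean over a gene's rows, and each array left out. The titles give both groups replicate numbers 1 to 3, but the labels link equal numbers to no common litter or date, and the hearts were treated as unpaired.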

Additional observations from a re-analysis of the deposited data

How the results depend on the processing

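The 10 genes had a median difference of -0.35, which lay between -0.40 and -0.27 with 1 array left out, at -0.33 after quantile normalization or centring on medians, at -0.29 with array weights and at -0.22 without both wild-type replicate 1 and transgenic replicate 2; 8 or 9 genes were lower in every fit. Averaging a gene's rows changed nothing, since each gene has 1.

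Counts of calls moved more, and the cause was not tested beyond what fewer samples or rows bring. Called rows numbered 209 of 21789, or 0.959%. They were 493 of the brighter rows left without the dimmest 40%, 579 of 21789 with a trended and robust prior, and 476 of 21789 at an adjusted p below 0.10. With 1 array left out they numbered 84 to 147, and without both hearts 23. With the replicate number as a block there were 97, and 0 of the 10 genes and 0 of the other Z-disc genes were called. Same-numbered hearts deviated together at r = 0.155, -0.011 and -0.104, so the numbers are not shown to pair hearts. Nothing is read from the counts for the 10 genes, because they were chosen on this contrast. Called among them were 5 without the dim rows, 4 with the trended prior, and 0 without both hearts or any 1 array. Other Z-disc genes called were 2, 5, 0 and 0 to 1 in these 4 settings, against 1. Intercalated disc genes called were 2 without the dim rows or after quantile normalization, 3 with the trended prior and 1 with array weights, against 0. YAP-TEAD and MRTF-SRF genes called were 1, 2 and 1 without the dim rows, with the trended prior and with array weights, against 0; relatives by family 1 with the trended prior, against 0; and load markers 1 with the trended prior, 0 to 1 with 1 array left out and 0 without both hearts, against 3. The small difference of Ankrd2 changed sign to -0.03 without transgenic replicate 3 and to -0.05 without wild-type replicate 2. Signal over background was not used here, and having 3 arrays per group limits the precision.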
